A study of Mus musculus with 12 samples.

Results

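The MHC class I presentation genes described here are 9 of the 750 genes measured in 12 transplanted mouse mammary tumors, and were chosen by gene symbol: the class I heavy chains H2-K1 and H2-D1, the peptide transport and loading genes Tap1, Tap2 and Tapbp, the immunoproteasome subunits Psmb8, Psmb9 and Psmb10, and the transactivator Nlrc5. All 9 passed the filter for low values (at least 20 normalized counts in at least 3 tumors), as did 689 genes in all. The class II genes H2-Aa and H2-Ab1 were set beside them. All tumors derive from mice with floxed alleles (Brca1f/f;Trp53f/f) and K14-Cre, whose keratin 14 promoter drives Cre in epithelium, so that the tumors of every group, vehicle included, carry both deletions where Cre was active. Tumor pieces were grown in the mammary fat pad of syngeneic female FVB/129P2 mice, which have their own immune system, and treatment began at 150 to 300 mm3. Each group held 3 tumors, harvested at 3 days: vehicle, ADU-S100 (a cyclic dinucleotide that activates STING, 50 μg in 1 intratumoral injection of 40 μl), olaparib (a PARP inhibitor, 50 mg/kg daily by intraperitoneal injection), and both drugs together. By the study's methods, vehicle and olaparib tumors were injected with saline. Vehicle and ADU-S100 mice received diluted DMSO by intraperitoneal injection. The age of the mice is not given in the sources used here. Bulk RNA of 100 ng per tumor was counted on the nCounter PanCancer Immune panel, on which barcoded probes are counted without amplification.

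Class I molecules show peptides from inside the cell to CD8 T cells. The immunoproteasome, in which 3 inducible subunits take the place of constitutive ones, cuts proteins into peptides, the TAP transporter carries these into the endoplasmic reticulum, and tapasin (Tapbp) holds the transporter next to the empty heavy chain. These genes are known for their induction by interferons, in part through interferon regulatory factors, and NLRC5 is the class I counterpart of CIITA, the transactivator of class II genes. Tumors are known to escape T cells by losing this machinery.

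Of the 9 genes, 7 lie on chromosome 17, and Psmb9, Tap1, Psmb8 and Tap2 follow each other within 34.3 kb of the MHC (chr17:34182030-34216321, GRCm38.p6). Psmb10 (chr8:105935728-105938392) and Nlrc5 (chr8:94434335-94527272) lie on chromosome 8. RefSeq promoter sequences of that build were matched for 7 of the 9, the exceptions being Tap2 and Nlrc5. The stretches before the start sites of H2-K1 (chr17:34000348-34000517, minus strand), H2-D1 (chr17:35262924-35263093, plus strand) and the class II gene H2-Aa (chr17:34287824-34287993, minus strand) are shown because the heavy chains share an architecture with class II genes, and the 225 bases between the divergent starts of Psmb9 and Tap1 (chr17:34187331-34187555, on the strand of Tap1) because both genes read from it. Capitals mark TGACG, the core of the cyclic AMP response element found in the X box of MHC promoters, ATTGG (the Y box, an inverted CCAAT box), and, in the heavy chains, GAANNGAAA, a core bound by interferon regulatory factors. In the heavy chains and H2-Aa, TGACG and ATTGG are capitals only where they form a pair on the coding strand, and in the stretch of Psmb9 and Tap1 on either strand. The H2-K1 stretch lies inside the annotated range of the gene (chr17:33996012-34000619), so the start site used there is not the outermost annotated one.
H2-K1: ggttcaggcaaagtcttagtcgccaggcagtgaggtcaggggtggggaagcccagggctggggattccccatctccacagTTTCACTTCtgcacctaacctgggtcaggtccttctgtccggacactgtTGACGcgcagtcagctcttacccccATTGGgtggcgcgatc
H2-D1: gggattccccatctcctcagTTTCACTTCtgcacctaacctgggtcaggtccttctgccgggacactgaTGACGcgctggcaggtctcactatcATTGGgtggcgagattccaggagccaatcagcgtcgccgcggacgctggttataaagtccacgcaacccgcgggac
H2-Aa: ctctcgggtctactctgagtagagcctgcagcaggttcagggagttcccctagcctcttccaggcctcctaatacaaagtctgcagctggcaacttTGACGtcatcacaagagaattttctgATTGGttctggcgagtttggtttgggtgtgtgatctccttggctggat
Psmb9 and Tap1: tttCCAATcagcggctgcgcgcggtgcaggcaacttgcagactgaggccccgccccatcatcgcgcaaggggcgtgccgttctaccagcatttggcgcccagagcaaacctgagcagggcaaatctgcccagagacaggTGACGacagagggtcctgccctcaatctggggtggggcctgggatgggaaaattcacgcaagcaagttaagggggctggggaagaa

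TGACG preceded ATTGG with starts 25 bases apart in H2-K1 and H2-D1 and 26 bases apart in H2-Aa. A pair spaced by 24 to 27 bases on either strand was present in 0.237% of the 32851 promoter windows of the reference (250 bases before to 50 bases after a start), and in no other of the matched class I genes. GAANNGAAA, here read on the opposite strand as tttcacttc, was present in H2-K1 and H2-D1 and in 7.52% of all windows on either strand. The longer form GAAANNGAAA, which contains the shorter one, was in 0 of the 7 windows and 3.44% of all. Single TGACG and ATTGG letters were common, in 20.8% and 37.4% of windows on either strand. These matches describe letters in the reference and not sites occupied in the tumors.

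Against vehicle, the combination had the higher mean for all 9 genes, by 0.44 (Psmb10) to 1.26 (H2-K1) on the log2 scale, with a median of 0.89 beside 0.21 over the 689 genes tested. Neither drug alone did so: the median of the 9 was 0.13 for ADU-S100 and 0.41 for olaparib, while all genes stood at 0.44 and 0.45. None of these differences passed the test against the spread between tumors. In limma over all 12 tumors, 0 of the 9 genes passed a Benjamini-Hochberg adjusted p of 0.05, and the share of the 689 genes that passed was 0% in each of the 6 pairwise comparisons and in the interaction. At an unadjusted p under 0.05 the combination had 52 genes higher and 1 lower than vehicle, with 0 of the 9 among them, and edgeR's quasi-likelihood test on the recovered counts also called 0 genes in each comparison. The log2 values are log2(normalized count + 1), each SE is from the limma fit, and since the labels name the tumors but not separate cages or donors, p-values measure the spread between these tumors. At the unadjusted threshold the 0 of 9 against vehicle became 5 without vehicle tumor 1269 and 3 in the fit on 2 groups. It became 2 with the intensity trend or the log2 scaling factor as a covariate. It stayed 0 with same-median scaling, quantile normalization, edgeR and the number series as a block.

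**Figure D1:**
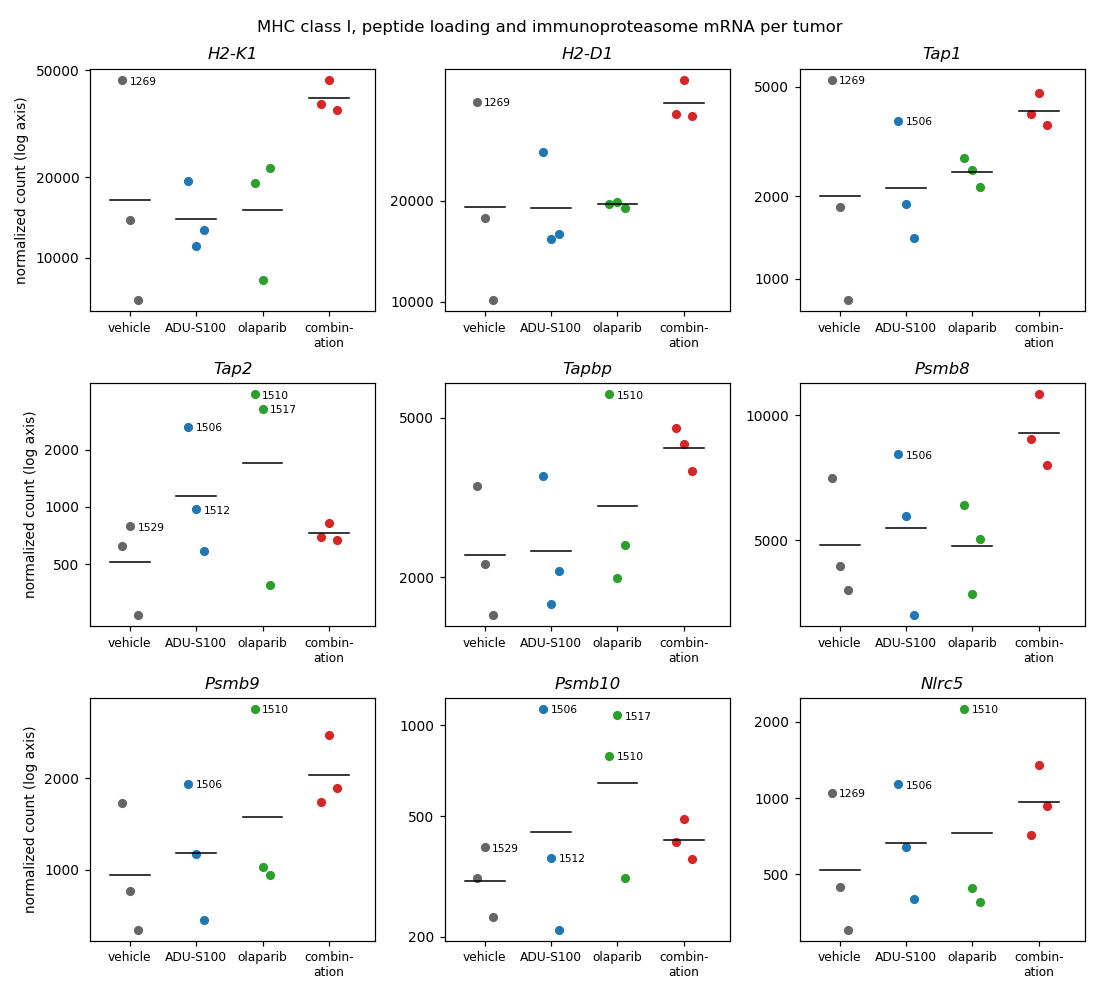
Normalized counts of the 9 genes (log axis) in each tumor, by treatment, with the geometric mean of each group of 3 as a line and numbers at tumors that reach the lowest combination tumor. The combination tumors sit close together and high for the heavy chains, Tap1, Tapbp and Psmb8, with vehicle tumor 1269 reaching them for the heavy chains and Tap1, whereas Tap2 and Psmb10 are highest in tumors 1506, 1510 and 1517.

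The heavy chains bind the peptide and are the part that T cells read. H2-K1 (chr17:33996012-34000619) measured 46028, 13814 and 6941 normalized counts in vehicle tumors 1269, 1529 and 1536, 19352, 11059 and 12664 in ADU-S100 tumors 1506, 1512 and 1513, 19006, 8268 and 21608 in olaparib tumors 1510, 1517 and 1521, and 37376, 46161 and 35476 in combination tumors 1251, 1270 and 1539. The combination tumors lay above 8 of the 9 others, and vehicle tumor 1269 stood level with the highest of them. The group means in falling order were 39671 ± 5700 in the combination, 22261 ± 20868 with vehicle, 16294 ± 7071 with olaparib and 14358 ± 4398 with ADU-S100 (SD, n = 3), and every pair of neighbours in that order overlapped. The log2 difference of the combination was 1.26 (SE 0.64, limma adjusted p = 0.652) from vehicle, 1.5 (SE 0.64, adjusted p = 0.492) from ADU-S100 and 1.39 (SE 0.64, adjusted p = 0.594) from olaparib. The difference from ADU-S100 was the only one among the 9 genes and 7 comparisons with an unadjusted limma p under 0.05. In that comparison 4.5% of all genes (31) were higher at that threshold. Vehicle tumor 1269 shares the number series beginning with 12 with combination tumors 1251 and 1270, and with that series as a block H2-K1 in the combination differed by 0.68 from ADU-S100 and by 0.57 from olaparib, with 0 of the 9 genes at an unadjusted p under 0.05. Against vehicle its difference ran from 0.35 (edgeR with TMM) to 2.01 (without vehicle tumor 1269) over the alternatives.

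H2-D1 (chr17:35263094-35267497) followed H2-K1 closely. It measured 39408, 17686 and 10074 in vehicle tumors 1269, 1529 and 1536, 27922, 15309 and 15889 in ADU-S100 tumors 1506, 1512 and 1513, 19590, 19859 and 19027 in olaparib tumors 1510, 1517 and 1521, and 36111, 45854 and 35711 in combination tumors 1251, 1270 and 1539. Again tumor 1269 alone of the 9 others reached the combination, and the olaparib tumors were nearly equal to each other (19492 ± 424, SD, n = 3). The combination mean of 39226 ± 5744 (SD, n = 3) was higher than vehicle by 1.02 (SE 0.49, limma adjusted p = 0.652), and by 1.04 and 0.999 than ADU-S100 and olaparib, which became 0.32 and 0.25 under quantile normalization. The ratio of H2-K1 to H2-D1 within a tumor, which is free of the scaling between tumors, lay between 0.993 and 1.04 in the combination but between 0.416 (tumor 1517) and 1.17 (tumor 1269) in the others. H2-K1 and H2-D1 are close in sequence, and without the probe sequences it is uncertain how well the probes tell them apart or bind the alleles of this strain.

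Peptide transport and loading split between Tap1 and Tapbp on the one side and Tap2 on the other. Tap1 (chr17:34187556-34197225), a subunit of the transporter, measured 5319, 1829 and 835 in vehicle tumors 1269, 1529 and 1536, 3766, 1876 and 1404 in ADU-S100 tumors 1506, 1512 and 1513, 2759, 2494 and 2159 in olaparib tumors 1510, 1517 and 1521, and 3975, 4759 and 3640 in combination tumors 1251, 1270 and 1539. The combination lay above every olaparib tumor, while tumors 1269 and 1506 reached it. Its log2 difference from vehicle was 1.03 (SE 0.61, limma adjusted p = 0.714), and over the alternatives it ran from 0.16 (edgeR with TMM) to 1.73 (without vehicle tumor 1269). For H2-D1, Tapbp, Psmb8, Psmb9, Psmb10 and Nlrc5 the lowest value, also with TMM, lay between 0.087 (Psmb10) and 0.57 (Psmb9), and for Tap2 it was 0.055 without vehicle tumor 1536. Tapbp (chr17:33919478-33929290) measured 3377, 2165 and 1612 with vehicle, 3569, 1715 and 2072 with ADU-S100, 5716, 1991 and 2415 with olaparib and 4705, 4288 and 3679 in the combination, with tumors in the same order. Only olaparib tumor 1510 reached the combination, and the log2 difference from vehicle was 0.88 (SE 0.49, limma adjusted p = 0.702).

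Tap2 (chr17:34204479-34216321), the partner of TAP1 in the transporter, had another pattern. It measured 621, 792 and 269 in vehicle tumors 1269, 1529 and 1536, 2646, 971 and 586 in ADU-S100 tumors 1506, 1512 and 1513, 3920, 3280 and 390 in olaparib tumors 1510, 1517 and 1521, and 698, 827 and 671 in combination tumors 1251, 1270 and 1539. Tumors 1506, 1510 and 1517 stood above all others, and the combination lay among the lower 9. The order of the means was olaparib (2530), ADU-S100 (1401), combination (732) and vehicle (561), with all neighbours overlapping. The log2 difference from vehicle was 1.74 (SE 0.85, limma adjusted p = 0.582) for olaparib, 1.17 (SE 0.85, adjusted p = 0.809) for ADU-S100 and 0.51 (SE 0.85, adjusted p = 0.989) for the combination. Without olaparib tumor 1521 the olaparib difference was 2.81 and passed (adjusted p = 0.0331), in a fit that calls 55 genes. With the log2 scaling factor as a covariate it was 0.69 for olaparib and 0.26 for ADU-S100. Over that and the other alternatives the adjusted p ranged from 0.0331 to 1. The ratio of Tap1 to Tap2, the subunits of 1 transporter, varied between tumors. It was 5.43 to 5.75 in the combination, 1.42 to 2.39 with ADU-S100, 0.704, 0.760 and 5.54 in olaparib tumors 1510, 1517 and 1521, and 2.31 to 8.56 with vehicle.

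**Figure D2:**
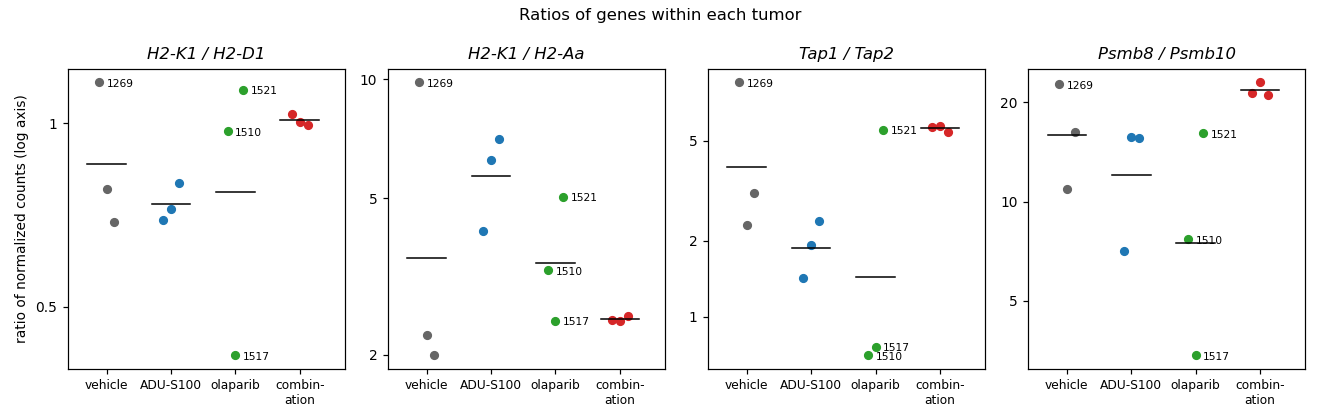
Ratios of normalized counts within each tumor (log axis) by treatment, with the geometric mean of each group of 3 as a line and numbers at vehicle tumor 1269 and the olaparib tumors. The combination tumors differ little from each other in all 4 ratios (0.993 to 1.04 for H2-K1 over H2-D1 and 5.43 to 5.75 for Tap1 over Tap2), and the olaparib tumors spread most in 3 of them.

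Among the immunoproteasome subunits, Psmb8 (chr17:34198195-34201454) measured 7068, 4331 and 3793 with vehicle, 8047, 5731 and 3300 with ADU-S100, 6092, 3699 and 5040 with olaparib and 8755, 11239 and 7575 in the combination, again in the order of tumors used above. All combination tumors exceeded all vehicle and all olaparib tumors, and ADU-S100 tumor 1506 alone reached them. The log2 difference was 0.89 (SE 0.44, limma adjusted p = 0.652) from vehicle, 0.76 (SE 0.44, adjusted p = 0.554) from ADU-S100 and 0.90 (SE 0.44, adjusted p = 0.594) from olaparib. Psmb9 (chr17:34182030-34187330) measured 1652, 850 and 634 with vehicle, 1920, 1124 and 681 with ADU-S100, 3384, 1017 and 961 with olaparib and 1669, 2782 and 1854 in the combination. Every combination tumor exceeded every vehicle tumor, the nearest pair being 1251 and 1269, and the log2 difference was 1.09 (SE 0.60, limma adjusted p = 0.695). Olaparib tumor 1510 had the highest value of all 12.

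Psmb10 was highest in the same tumors as Tap2. It measured 312, 395 and 233 in vehicle tumors 1269, 1529 and 1536, 1134, 365 and 211 in ADU-S100 tumors 1506, 1512 and 1513, 793, 1079 and 313 in olaparib tumors 1510, 1517 and 1521, and 412, 489 and 361 in combination tumors 1251, 1270 and 1539. Tumors 1506, 1510 and 1517 were the highest, and the log2 difference of the combination was 0.44 (SE 0.63, limma adjusted p = 0.989) from vehicle and -0.63 (SE 0.63, adjusted p = 0.730) from olaparib. Psmb8 over Psmb10 was 21.0 to 23 in the combination, 10.95 to 22.7 with vehicle, 7.10 to 15.7 with ADU-S100 and 3.43 to 16.1 with olaparib. Psmb7, the constitutive subunit whose place PSMB10 takes, was named here after its values were seen: it was 807 and 943 in tumors 1510 and 1517 and between 1951 and 3788 in the other 10. Psmb10 over Psmb7 was accordingly 0.983 and 1.14 in tumors 1510 and 1517, 0.576 in tumor 1506 and 0.0813 to 0.205 in the other 9.

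Nlrc5, which enters the nucleus and switches on class I genes, measured 1049, 447 and 303 in vehicle tumors 1269, 1529 and 1536, 1136, 642 and 401 in ADU-S100 tumors 1506, 1512 and 1513, 2250, 440 and 390 in olaparib tumors 1510, 1517 and 1521, and 713, 1345 and 928 in combination tumors 1251, 1270 and 1539. One tumor of each other group (1269, 1506 and 1510) reached the combination. The olaparib mean was the highest (1027 ± 1060 against 995 ± 322 in the combination, SD, n = 3) through tumor 1510 alone. The log2 difference of the combination from vehicle was 0.88 (SE 0.72, limma adjusted p = 0.944). Nlrc5 in tumor 1517 rested on 42 counts, the fewest behind any value of the 9 genes, and its exact 95% Poisson interval of 317 to 595 normalized counts covers counting error only. The largest count behind a value was 67478.

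Some of the 9 genes separated groups completely, which many other genes did too. In the comparison with vehicle, 3 of 9 (Tapbp, Psmb8 and Psmb9) were higher in every combination tumor than in every vehicle tumor, beside 18.4% of all genes. Against ADU-S100 there were 3 (H2-K1, H2-D1 and Tapbp) beside 10.4%, and against olaparib 4 (H2-K1, H2-D1, Tap1 and Psmb8) beside 11%. Above all 9 other tumors there were 0 of the 9 genes, beside 3.19% of all genes (22), among which were H2-Aa and H2-Ab1.

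**Figure D3:**
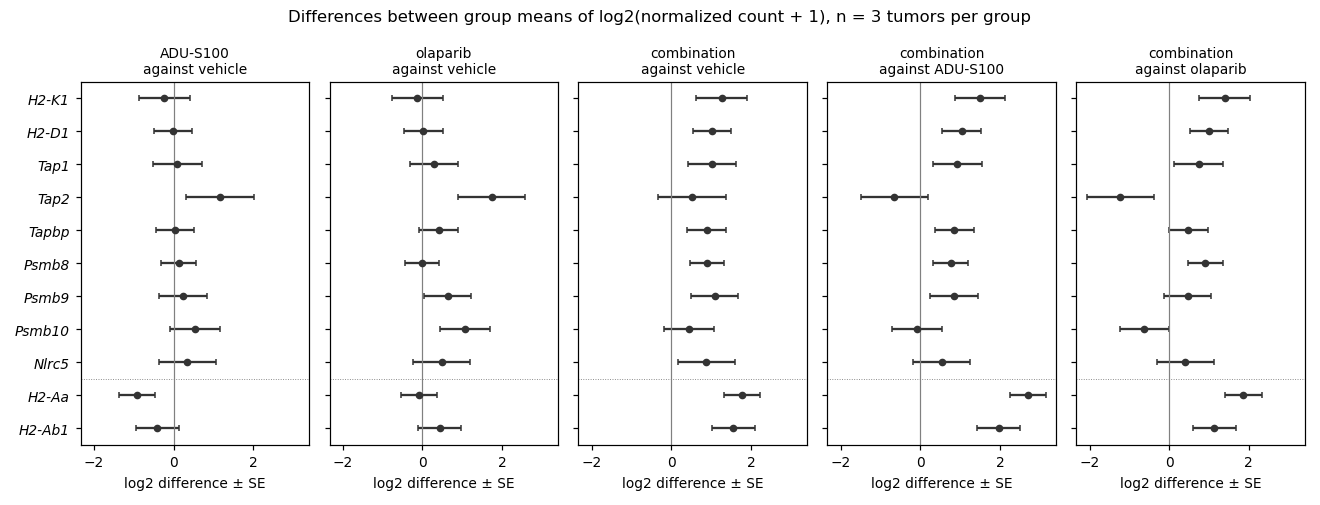
Log2 differences between group means with their SE (limma, 3 tumors per group) for the 9 genes and, under the dotted line, the class II genes H2-Aa and H2-Ab1. Points for the combination against vehicle all lie right of 0 (0.44 to 1.26 for the 9 genes), those of ADU-S100 and olaparib against vehicle are farthest right for Tap2 (1.17 and 1.74) and Psmb10, and Tap2 lies left of 0 for the combination against each single drug.

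The medians depended on the scaling and on vehicle tumors. Scaling every tumor to the same median of log2 values brought the all-gene median of the combination against vehicle from 0.21 to 0.01 and that of the 9 genes from 0.89 to 0.69, with all 9 higher under each scaling tried. For ADU-S100 the 9 genes went from 7 higher and a median of 0.13 to 2 higher and -0.28, and for olaparib from 7 higher and 0.41 to 5 higher and 0.06. For ADU-S100 against vehicle, 1 of the 9 was higher without ADU-S100 tumor 1506, 2 without vehicle tumor 1536 and all 9 without vehicle tumor 1269. With the number series as a block, the median of the 9 in the combination went from 0.85 to 0.37 against ADU-S100 and from 0.48 to -0.0023 against olaparib. Without vehicle tumor 1269 the median of the 9 genes in the combination against vehicle was 1.38, without vehicle tumor 1536 it was 0.56, and edgeR with TMM normalization gave 0.35.

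The effect of ADU-S100 given with olaparib was compared with its effect given alone. This interaction was 1.63 (SE 0.90, limma adjusted p = 0.439) for H2-K1 and 1.02 (SE 0.69, adjusted p = 0.490) for H2-D1, with neither passing. For H2-D1 it was 0.0054 under quantile normalization. It was -2.40 (SE 1.20, adjusted p = 0.439) for Tap2 and -1.16 (SE 0.89, adjusted p = 0.555) for Psmb10. For Tap2 it passed without olaparib tumor 1521 (-3.46, adjusted p = 0.0285, in a fit that calls 86 genes) and was -0.35 with the log2 scaling factor as a covariate, and over all alternatives its adjusted p ranged from 0.0285 to 0.947. For H2-K1 it was 0.39 with the number series as a block. The median of the 9 genes was 0.44 and that of all genes -0.55. Without vehicle tumor 1269 the former was -0.06, with the number series as a block it was -0.47 beside -0.43 over all genes, and same-median scaling gave 0.99 beside 0.003. ADU-S100 and olaparib were also set against each other: 0 of the 9 genes passed, and the median was -0.19.

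Across the 12 tumors, the genes other than Tap2 and Psmb10 rose and fell together. The 21 pairs among these 7 genes had Pearson's r between 0.62 and 0.97 (median 0.79) and Spearman's rho between 0.62 and 0.96, and 20 of them passed in permutation tests adjusted over all 36 pairs (19 for rho). Leaving out the 2 tumors farthest from the median of the first gene gave r between 0.44 and 0.95. The 14 pairs of one of these genes with Tap2 or Psmb10 had r between -0.09 and 0.56, and 0 of the 14 passed (2 for rho, Psmb9 with Tap2 and with Psmb10). Leaving out the 2 farthest tumors gave these pairs r between -0.41 and 0.83, a range that overlaps that of the 21. Tap2 and Psmb10 correlated with each other at r = 0.91 and rho = 0.89 (permutation test, adjusted p = 0.0018 and 0.00276), and at r = 0.88 without tumors 1510 and 1517. The 2 kinds of pair were told apart after their values were seen, and the difference between them was not tested.

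Nlrc5 and Psmb9, which lie on different chromosomes, gave the highest r of all pairs at 0.97 (rho = 0.94, permutation test, adjusted p = 0.00018, n = 12 tumors), and 0.94 without tumors 1510 and 1536. Tap1 and H2-D1 gave 0.96 (rho = 0.96, adjusted p = 0.00018 in the permutation test), while Tap1 and Psmb9, which share the promoter shown above, gave 0.79 (rho = 0.78, adjusted p = 0.00549) and 0.80 without tumors 1269 and 1536. Subtracting group means gave medians of 0.73 for the 21 pairs and 0.50 for the 14, and scaling to the same median gave 0.86 and 0.12. Within the 9 tumors whose number begins with 15 the medians were 0.74 and 0.53, and the 3 tumors whose number begins with 12 were too few for a value.

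**Figure D4:**
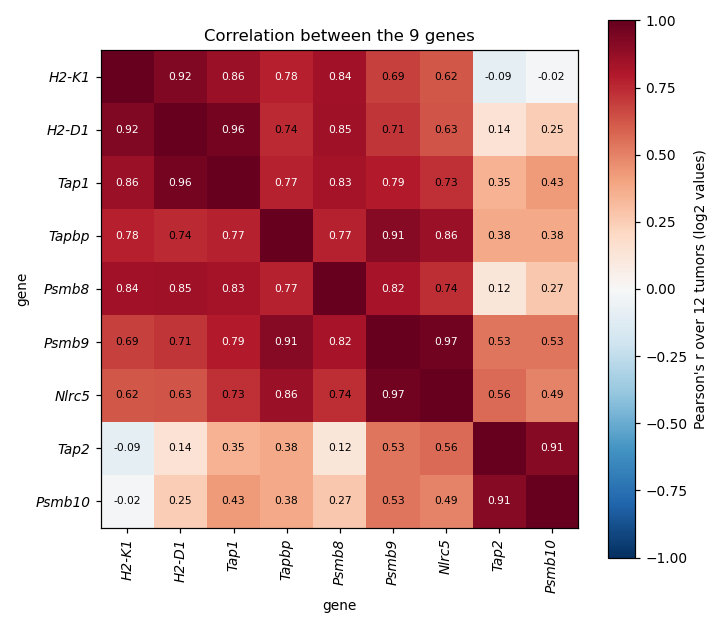
Pearson's r between the log2 values of each pair of the 9 genes over 12 tumors, as color and number. The 7 genes from H2-K1 to Nlrc5 form a block with values of 0.62 to 0.97, and Tap2 and Psmb10 pair with each other at 0.91 and with the 7 at -0.09 to 0.56.

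The number of counts differed between tumors, and Tap2 and Psmb10 were higher where the scaling factor was larger, that is, in tumors with fewer counts. The recovered counts summed to 106206 to 1519471 per tumor, and the scaling factor, by which a count was multiplied to give the deposited value, ran from 0.589 (tumor 1521) to 10.5 (tumor 1517). The sums were 1339258 to 1491854 in the combination and 372390 to 683982 with ADU-S100, so between these groups depth went with treatment. They were 632152 to 1519471 with vehicle and 106206 to 1392128 with olaparib. Over 12 tumors the log2 factor correlated with Tap2 at r = 0.81 (rho = 0.84, permutation test, adjusted over the 9 genes p = 0.00666 and 0.0112) and with Psmb10 at r = 0.74 (rho = 0.68, adjusted p = 0.022 and 0.0835). Without tumors 1506 and 1517, the farthest from the median factor, r was 0.71 for Tap2 and 0.38 for Psmb10. The other 7 genes had r from -0.52 (H2-K1) to 0.01 (Nlrc5), and 0 of the 7 passed. Over all 689 genes the median r was 0.59, and 26.7% of them had an r at or above that of Tap2. The part of the factor in the levels of Tap2 and Psmb10 was not tested beyond the fit with the factor as a covariate, in which Tap2 in the combination against ADU-S100 went from -0.65 to 0.34 and Psmb10 from -0.09 to 0.58, and Tap2 in the combination against olaparib went from -1.23 to -0.083.

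The class II genes separated the combination from every other tumor. H2-Aa measured 4678, 6164 and 3474 in vehicle tumors 1269, 1529 and 1536, 4683, 1770 and 1789 in ADU-S100 tumors 1506, 1512 and 1513, 5796, 3385 and 4288 in olaparib tumors 1510, 1517 and 1521, and 15231, 18905 and 14123 in combination tumors 1251, 1270 and 1539. H2-Ab1 measured 2830, 4447 and 2346, then 5096, 1837 and 1347, then 6355, 4642 and 2451, and 8758, 9775 and 8812 in the same order. The lowest combination tumor was thus above the highest of the other 9 for both. The log2 difference of H2-Aa was 1.78 (SE 0.46, limma adjusted p = 0.278) from vehicle and 2.70 (SE 0.46, adjusted p = 0.0624) from ADU-S100, the latter passing under 6 alternatives, with an adjusted p from 0.0123 to 1 over all of them. Tumor 1269, level with the combination for the heavy chains, was not so for class II.

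Because the combination tumors form a cluster of their own in both class II genes, no r over the pooled 12 tumors is given. Over the 9 tumors outside the combination, the 18 pairs of a class I and a class II gene all had r above 0, and 0 of the 18 passed in exact permutation tests with Benjamini-Hochberg adjustment. With H2-Aa, r ran from 0.24 (Tap2) to 0.61 (Tapbp), rho from 0.25 to 0.72, and the smallest adjusted exact p was 0.295. With H2-Ab1, r ran from 0.15 (H2-K1) to 0.83 (Psmb10), rho from 0.32 to 0.83, and the smallest adjusted exact p was 0.111 (Psmb10, unadjusted exact p = 0.00616). Leaving out the 2 tumors farthest from the median of the class II gene gave r between 0.06 and 0.62 with H2-Aa and between 0.03 and 0.78 with H2-Ab1. After scaling to the same median, the pair of Tap2 and H2-Aa turned to -0.14, quantile normalization turned Tap2 with H2-Aa to -0.019 and H2-D1 with H2-Aa to -0.072, and after same-median scaling H2-K1 with H2-Aa went from 0.43 to 0.72 (adjusted exact p = 0.14).

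With group means subtracted over all 12 tumors, r lay between 0.49 and 0.74 with H2-Aa and between 0.15 and 0.93 with H2-Ab1, and 1 of the 18 pairs passed. This was Tap2 with H2-Ab1 (r = 0.89, exact permutation within groups, adjusted p = 0.0278), while Psmb10 with H2-Ab1 had the higher r of 0.93 and did not pass (adjusted exact p = 0.0972). By rho both passed (adjusted exact p = 0.0417 and 0.0486). With same-median scaling as well, Tap2 with H2-Ab1 had r = 0.60 (adjusted exact p = 0.369), and over the 9 tumors outside the combination its adjusted exact p was 0.0833, so that 0 pairs passed by r in either case. By rho, Psmb9 and Nlrc5 with H2-Ab1 passed in the first of these (adjusted exact p = 0.0278 for each). Within the 8 tumors outside the combination whose number begins with 15, r lay between 0.29 and 0.84, and 0 of the 18 passed. The ratio of H2-K1 to H2-Aa was 2.44 to 2.51 in the combination, 4.13 to 7.08 with ADU-S100, 2.44 to 5.04 with olaparib and 2.0, 2.24 and 9.84 in vehicle tumors 1536, 1529 and 1269. Vehicle tumors 1536 and 1529 thus lay below the combination and tumor 1269 above it, so this ratio did not set the combination apart from vehicle. H2-D1 over H2-Aa was 2.37 to 2.53 in the combination, 5.96 to 8.88 with ADU-S100, 3.38 to 5.87 with olaparib and 2.87 to 8.42 with vehicle.

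**Figure D5:**
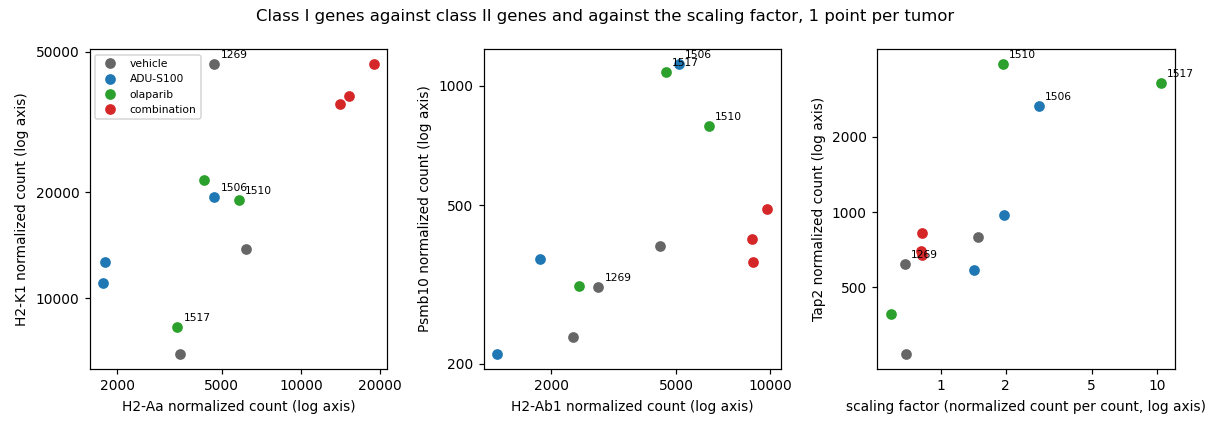
H2-K1 against H2-Aa, Psmb10 against H2-Ab1, and Tap2 against the scaling factor, 1 point per tumor, colored by treatment, on log axes. The 3 combination tumors lie apart on both class II axes, tumor 1269 has as much H2-K1 as they do (46028) with less H2-Aa (4678), and Tap2 is highest in tumors 1510, 1517 and 1506.

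Among the 10 genes whose pattern was most like the mean of the 9 (standardized log2 values, Pearson's r over 12 tumors, 680 other genes ranked) were Oas2 (0.97), Ifi44l (0.94), Zbp1 (0.92), Bst2 (0.91), H2-T23 (0.90), Ifit3 (0.90), Oas3 (0.90), Irgm2 (0.90) and Cmpk2 (0.88). All of these are known as interferon-stimulated, and H2-T23 codes for the class Ib molecule Qa-1. With every tumor scaled to the same median, Ifit3 ranked 16 and the others named here ranked within the first 11. H2-Ab1 ranked 33 and H2-Aa 67. Likeness was the criterion of choice, so no test is attached to it.

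Genes of the wider pathway moved unevenly in the combination against vehicle. Among the other class I presentation genes, 10 of 32 listed were measured, 4 had a higher mean and 0 passed, with a median of -0.09. Over all 689 genes 65.3% had a higher mean, with a median of 0.21. The farthest from 0 were H2-T23 (1.12, SE 0.57, limma adjusted p = 0.652), Mr1, a class I-like molecule that presents vitamin B metabolites (1.08, SE 0.42, adjusted p = 0.472), and H2-Q1 at low levels (-1.06, SE 0.85, adjusted p = 0.930). All 11 measured class II presentation genes had a higher mean and 0 passed, with a median of 0.998, led by the invariant chain Cd74 (1.90, SE 0.56, adjusted p = 0.278). Cd74, H2-Aa, H2-Ab1 and Mr1 are among the genes the study selected on these tumors, and are no independent evidence of direction.

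Of the interferon signalling genes and class I regulators, 21 of 25 tested had a higher mean and 0 passed, with a median of 0.33, beside 20 of 25 and 0.27 for ADU-S100 and 22 of 25 and 0.63 for olaparib. Of all 689 genes, 78.2% were higher with ADU-S100 (median 0.44) and 74.6% with olaparib (median 0.45) than with vehicle. Irf7 (2.20, SE 0.90, limma adjusted p = 0.504) and Stat2 (1.34, SE 0.74, adjusted p = 0.702) were among the farthest from 0. Irf1, a direct activator of class I promoters, differed by 0.82 (SE 0.47, adjusted p = 0.705), and Ciita by 0.96 (SE 0.56, adjusted p = 0.705). Ifng, whose product is the strongest known inducer of the immunoproteasome, did not pass the filter, with 6.14 to 11.9 normalized counts with vehicle, 7.86 to 37.0 with ADU-S100, 2.95 to 41.9 with olaparib and 8.91 to 9.89 in the combination.

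A list of CD8 T cell and NK cell genes held receptors, coreceptors and the granule genes Gzma, Gzmb and Prf1. Only some of these code for readers of class I. In the combination against vehicle 18 of 20 tested genes had a higher mean, with a median of 1.15 and 0 passing. Over all 689 genes 65.3% were higher, with a median of 0.21. The farthest from 0 were Klrk1 (2.41, SE 0.61, limma adjusted p = 0.278), Cd3e and Cd3g. Against the same vehicle tumors, ADU-S100 had 19 of 20 higher (median 1.28) and olaparib 20 of 20 (median 1.23). The combination had 7 of 20 higher than ADU-S100 (median -0.44), where 40.3% of all genes were higher (median -0.22), and 7 of 20 higher than olaparib (median -0.28), where 41.4% were (median -0.15). Of the markers of other cells in bulk tumor, 8 of 8 tested T cell genes had a higher mean in the combination than with vehicle (median 1.36). The sum of all 10 measured T cell genes was 382 to 617 against 121 to 266, with 201 to 518 for ADU-S100 and 159 to 817 for olaparib. The 13 stromal and endothelial genes were all lower (median -0.90), with sums of 15480 to 29827 against 18051 to 96945 (34424 to 63045 for ADU-S100 and 5122 to 51234 for olaparib), and the 5 epithelial genes summed to 19797 to 22674 against 12100 to 24372. Sums of 4 dendritic cell genes were 197 to 349 against 110 to 169 (128 to 242 for ADU-S100 and 148 to 398 for olaparib). Those of 5 leukocyte genes were 2597 to 2865 against 1451 to 2661 (1629 to 4013 for ADU-S100 and 1962 to 2509 for olaparib). The sums of 8 macrophage and monocyte genes overlapped (4982 to 6772 against 3712 to 6977). Of these 8, 3 had a higher mean in the combination (median -0.07). Sums of 3 NK cell genes were 38.1 to 102 against 26.3 to 46.1 (75.6 to 322 for ADU-S100 and 29.5 to 283 for olaparib). The stromal sum was 18051 in vehicle tumor 1269, which reached the combination for the heavy chains, Tap1 and Nlrc5, 5122 in olaparib tumor 1510, which did so for Tap2, Tapbp, Psmb9, Psmb10 and Nlrc5, 63045 in ADU-S100 tumor 1506, which did so for Tap1, Tap2, Psmb8, Psmb9, Psmb10 and Nlrc5, and 18290 in olaparib tumor 1521, which did so for none of the 9 genes. Vehicle tumor 1529, ADU-S100 tumor 1512 and olaparib tumor 1517 reached the combination for Tap2 and Psmb10 only, with stromal sums of 96945, 44825 and 51234. Vehicle tumor 1536 (56578) and ADU-S100 tumor 1513 (34424) reached it for none of the 9 genes. No measured marker was at 0 in any tumor. In bulk RNA, more cells of a type and more RNA per cell cannot be told apart, and the part of these markers in the class I values was not tested.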

How the data were processed

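The 12 tumors were grouped from the sample labels, 3 per treatment. The authors deposited a linear signal per gene and tumor. By the study's methods, nSolver 4.0 had checked the nCounter counts, corrected them for background and scaled them, first to positive controls and then by 8 housekeeping genes (geometric mean). No control probe was analysed here, so those steps were not repeated. In each tumor the values are whole multiples of a step, from which counts were recovered; 99.866% to 100% of each tumor's values came out within 0.01 of a whole count, and edgeR called 0 genes on them. Limma 3.58.1 in R 4.3.3 fitted log2(normalized count + 1) of genes with at least 20 in at least 3 tumors, one mean per group over the 12 tumors, with Benjamini-Hochberg adjustment over 689 genes and a threshold of 0.05. A fold on this scale understates the change of low genes.

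Correlations used two-sided permutation tests, exact below 10 tumors and with 100000 resamples otherwise. The planned correlation over all 12 tumors is replaced in the text by the 9 tumors outside the combination, which stands apart in both class II genes. Named genes were the 9 genes, H2-Aa, H2-Ab1, the 10 most alike, and 3 per list with the largest difference between combination and vehicle, with Irf1, Ifng and Ciita, except for results on 1 gene that are not reported here. The genes and lists were chosen with earlier results of these data known. Tumor numbers begin with 12 (3 tumors: 1 vehicle, 2 combination) or 15, and the labels do not say why. B2m was not analysed here. Alternatives were leaving out each tumor, a filter at 50 or none, a pseudocount of 10, same-median and quantile scaling, an intensity trend, fits on 2 groups, the methods' t-test, edgeR 4.0.16 with the authors' factors or TMM, the number series as a block, and the log2 factor as a covariate. The scripts were tested on simulated data. Promoters are RefSeq sequences (GRCm38.p6). Python 3.11.15 and matplotlib 3.10.9 were used.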

Additional observations from a re-analysis of the deposited data

How the results depend on the processing

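All 9 genes stayed higher in the combination than with vehicle under the 13 alternatives that move these differences (6 that left out a tumor of either group and 7 others), while the other 12 leave them as they are by construction. The median over the 9 genes moved by less than 0.623, the pooled SD of their mean log2 value between tumors of a group, except for the interaction with the number series as a block (-0.47). Calls appeared where the reported fit had 0. For the combination against vehicle, 2 genes passed in the fit on 2 groups, 3 by the methods' t-test after Benjamini-Hochberg adjustment (0 after the Benjamini-Yekutieli adjustment that the methods state) and 4 with the log2 factor as a covariate. For the combination against ADU-S100, 1 gene (H2-Aa) passed with a pseudocount of 10, a filter at 50, same-median scaling, quantile normalization and the intensity trend, and leaving out a tumor gave 0 to 1. Leaving out a tumor gave 0 to 55 genes and 0 to 1 of the 9 genes for olaparib against vehicle, 0 to 54 genes for the combination against olaparib, and 0 to 86 genes and 0 to 1 of the 9 genes for the interaction, each highest without olaparib tumor 1521.

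Over all 9 genes and 7 comparisons, signs turned in 104 of 1548 recomputed differences, 0 of them past the threshold. The 1548 include differences that could not turn, since in each pairwise comparison some alternatives leave it as it is by construction. The share of turned signs is therefore no measure of stability. The turned signs were 35 for ADU-S100 against vehicle, 21 for olaparib against vehicle, 18 for ADU-S100 against olaparib, 18 for the interaction, 6 for the combination against each single drug and 0 for the combination against vehicle. Among these, in the combination against ADU-S100, Psmb10 gave 0.11 with same-median scaling, 0.014 with quantile normalization, 0.58 with the factor as a covariate and -0.62 to 0.58 without a tumor, and Tap2 gave 0.34 with the covariate. In the combination against olaparib, Nlrc5 gave -0.050 by edgeR with the authors' factors, -0.13 with the number series as a block and -0.049 to 1.21 without a tumor, while with that block Tap1 gave -0.050 and Psmb9 -0.0023, and Psmb10 gave 0.14 with the covariate. In the interaction Psmb10 gave 0.22 with the covariate. For ADU-S100 against vehicle, H2-K1 gave 0.18 with the number series as a block, 0.11 with the covariate and -0.85 to 0.51 without a tumor. The cause was not tested.

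Of the 18 pairs with class II genes, 0 passed by Pearson's r over the 9 tumors outside the combination, there also under each alternative (by rho, 2 without ADU-S100 tumor 1512). Over the pooled 12 tumors 11 passed by r, 0 with quantile normalization, 0 in tumors whose number begins with 15, 0 without the 2 farthest tumors, 1 with group means subtracted, 0 with group means subtracted and same-median scaling (chosen after seeing the data), and 0 to 12 with 1 of the 12 tumors left out. No paired analysis was possible because the groups share no replicate numbers. With 3 tumors per group, exact tests of a single value cannot go below p = 0.1, and tumor 1517 had the fewest counts.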
